A study of Mus musculus with 4 samples.

Results

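Pericyte-like cells were studied in single-cardiac-endothelial-cell RNA sequencing of the mouse left ventricle. The cells had been sorted for a red fluorescent reporter (tdTomato behind a stop cassette) that is switched on by tamoxifen-inducible Cre under the endothelial Cdh5 promoter, so pericytes were not the sorted population. Pericyte-like cells were chosen by their measured counts of unique molecular identifiers (UMIs, 1 per captured transcript). A cell had to hold at least 3 UMIs of Kcnj8, Abcc9, Vtn and Pdgfrb together and at least 3 of Rgs5, at most 2 of the smooth muscle genes Acta2, Tagln and Myh11, and at most 1 of the fibroblast genes Dcn, Lum and Pdgfra. Of 39829 cells that passed the filters on genes, mitochondrial UMIs and hemoglobin UMIs, 545 (1.37%) met these criteria.

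The series holds 4 libraries. NC library 1 and NC library 2 came from mice on chow diet with 10% of energy from fat and no L-NAME, and HFpEF library 1 and HFpEF library 2 from mice on high-fat diet with 60% of energy from fat plus 0.5 mg/ml of L-NAME, an inhibitor of nitric oxide synthase, both for 20 weeks. All mice carried the Cdh5-CreER driver, the tdTomato reporter and floxed Scarb1, and the study used both homozygous (Sfl/fl/RΔEC) and heterozygous (Sfl/+/RΔEC) floxed mice on each diet. The labels give the diet of a library but not its genotype, so genotype cannot be told apart from other differences between the 2 libraries of each diet, and the number of mice behind a library and their age at collection were not given in the sources used here. The p-values below therefore measure only the spread between these libraries. The pericyte-like cells numbered 88 in NC library 1, 141 in NC library 2, 111 in HFpEF library 1 and 205 in HFpEF library 2, with summed depths of 498668, 883918, 305782 and 677839 UMIs. The HFpEF libraries were shallower, with a median of 2519 and 2538 UMIs per pericyte-like cell against 5328 and 5830 in the NC libraries.

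Pericytes are mural cells that sit within the basement membrane of capillaries, in direct contact with the endothelium. Endothelial PDGF-B holds them there through the receptor PDGFRβ, and Notch ligands of the endothelium act on pericyte NOTCH3. In the heart they are abundant around capillaries, carry ATP-sensitive potassium channels built from Kcnj8 (the pore subunit Kir6.1) and Abcc9 (the sulfonylurea receptor SUR2), and respond to nitric oxide through soluble guanylate cyclase.

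The 5 markers were present in all 4 libraries. Rgs5, a regulator of G protein signalling, was at 9808 and 9544 UMIs per 1e+06 (CPM, counts per 1e+06 UMIs of the summed cells) in NC libraries 1 and 2 and at 8055 and 8480 CPM in HFpEF libraries 1 and 2. Vtn, which encodes vitronectin, was at 963, 903, 1096 and 879 CPM, in the same order. Kcnj8 averaged 894 ± 118 CPM (SD, n = 4 libraries), Abcc9 886 ± 111 CPM and Pdgfrb 578 ± 57.3 CPM. Since these genes chose the cells, their levels are a description only. Kcnj8 (GRCm38 chr6:142564837-142571614, minus strand) and Abcc9 (chr6:142587862-142702315, minus strand) are neighbouring protein-coding genes on chromosome 6, and Rgs5 lies at chr1:169655501-169695813 on the plus strand (GENCODE positions). Endothelial cells of the same libraries were defined by at least 2 UMIs of Pecam1 and Cdh5. They held at most 1 UMI of the 5 markers, Acta2, Tagln and Myh11 together, and no UMI of Dcn, Lum, Pdgfra or the leukocyte gene Ptprc. This definition fixed low levels of the 5 markers in them, with Rgs5 at 15.5 ± 4.44 CPM and Vtn at 0.271 ± 0.196 CPM.

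The criteria cut through a continuum at some edges. There were 67 cells with exactly 3 UMIs of the 4 summed markers, and 118 cells with 2 met every other criterion. For Rgs5 only 5 cells had 3 UMIs and 4 had 2, and for the smooth muscle sum 38 cells had 2 UMIs and 22 had 3, while 340 cells over the maximum of 2 met all other criteria. No pericyte-like barcode occurred in 2 libraries, although 168 barcodes among all deposited cells, before the filters, were shared over the 6 pairs of libraries.

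Genes not used to choose pericyte-like cells also stood above endothelial cells, known mural genes among them. The 30 leading genes had at least 50 CPM in each library and the highest log2 ratio to endothelial cells in their lowest library, and that lowest ratio was 3.58 or more on the log2(CPM + 10) scale. Of the 30, 12 were in the lists of pericyte or contractile genes and 18 were in neither, where 35 of the 2662 genes at 50 CPM or more in every library were in those lists. Ndufa4l2, a hypoxia-linked mitochondrial protein and common pericyte marker, led the list with 1344 CPM in NC library 1, 1289 CPM in NC library 2, 1177 CPM in HFpEF library 1 and 884 CPM in HFpEF library 2, against 1.24 ± 0.154 CPM in endothelial cells. Its mean log2 ratio was 6.70 ± 0.27, and HFpEF library 2 was the lowest of the 4. Colec11, a collectin, followed at 900, 993, 1056 and 724 CPM, Cygb (cytoglobin) at 850, 846, 1017 and 748 CPM, and Steap4, a metalloreductase, at 794, 804, 710 and 603 CPM, in the order NC library 1, NC library 2, HFpEF library 1 and HFpEF library 2. HFpEF library 2 was again the lowest for all 3 genes. These are ratios between groups of cells defined by measured counts, so no test was made.

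**Figure D1:**
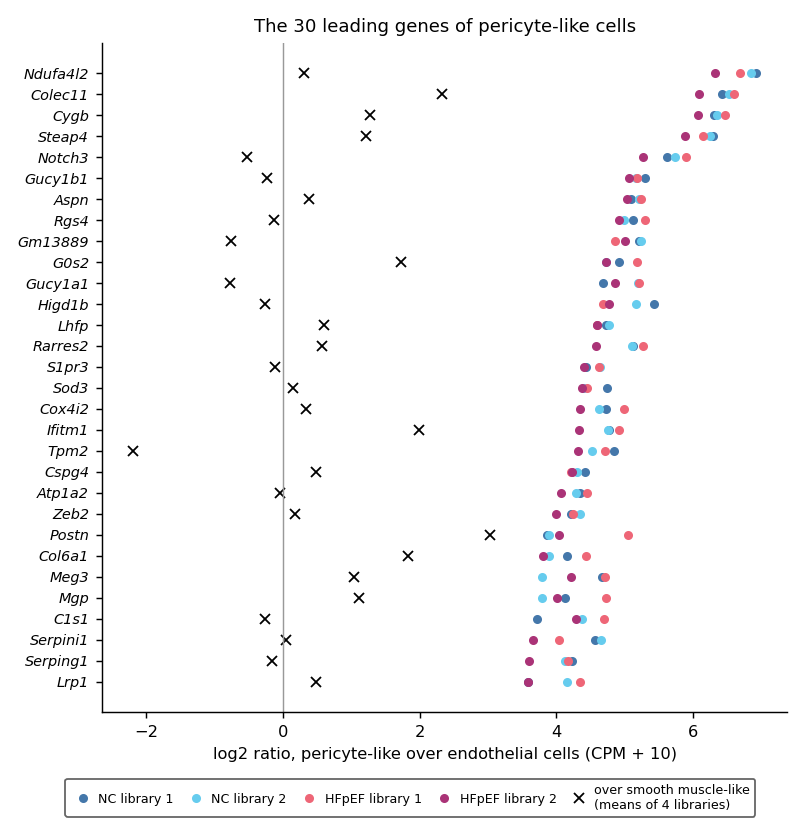
Log2 ratio of CPM (10 CPM added to both) between pericyte-like and endothelial cells for each of the 30 leading genes, 1 point per library, with the ratio of all pericyte-like to smooth muscle-like cells as a cross. All points lie at 3.58 or higher, while the crosses lie on both sides of 0. In cells with no Pecam1 or Cdh5 UMI, which are not plotted, 28 of the 30 mean ratios to smooth muscle-like cells were above 0. The smooth muscle-like cells were not divided in this way.

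Compared with smooth muscle-like cells (608 cells with at least 5 UMIs of Acta2, Tagln and Myh11), 19 of the 30 leading genes had a mean log2 ratio above 0 over all pericyte-like cells, and 28 had one in the 143 pericyte-like cells with no Pecam1 or Cdh5 UMI. Colec11 was at 175 ± 53.9 CPM in smooth muscle-like cells, a log2 ratio of 2.37 ± 0.28 (SD, n = 4 libraries). Notch3 was at 741 ± 86.3 CPM in smooth muscle-like and 512 ± 85.2 CPM in pericyte-like cells (log2 ratio -0.53 ± 0.21), but at 946 ± 208 CPM in the 143 cells (0.33 ± 0.17), which turned the direction. Smooth muscle-like cells were not divided by Pecam1 and Cdh5. They held 23522, 20866, 21086 and 23046 CPM of 23 other endothelial genes in NC libraries 1 and 2 and HFpEF libraries 1 and 2. The 143 cells held 7930, 7475, 8219 and 15038 CPM of them. Ratios of the 143 cells to smooth muscle-like cells therefore compare unlike shares of endothelial transcripts. The list of 20 contractile genes summed to 3150, 2790, 2973 and 2729 CPM in pericyte-like cells of NC libraries 1 and 2 and HFpEF libraries 1 and 2. In smooth muscle-like cells it summed to 9155, 9456, 7953 and 9183 CPM. As examples not used in the criteria, Myl9, a regulatory myosin light chain, was at 158 ± 44.3 against 1353 ± 146 CPM. Tpm2, a tropomyosin, was at 274 ± 44.0 against 1294 ± 310 CPM. Desmin (Des), an intermediate filament protein, was at 177 against 402 CPM on average. In the 143 cells Myl9 averaged 268 CPM and Tpm2 647 CPM, still lower than in smooth muscle-like cells in every library, whereas Des averaged 333 CPM with a log2 ratio from -0.87 to 0.06.

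The pathways through which pericytes receive signals were present at low to moderate levels. For nitric oxide, the soluble guanylate cyclase subunits Gucy1a1 and Gucy1b1 were at 351 ± 61.2 and 408 ± 37.3 CPM, against 1.24 ± 0.141 and 1.52 ± 0.381 CPM in endothelial cells. Pde3a, a phosphodiesterase that degrades cyclic nucleotides, was at 108 ± 17.6 CPM, and Prkg1, the cGMP-dependent kinase, at 59.3 ± 8.25 CPM. Among receptors for vasoactive ligands, Ednra (endothelin receptor A) was at 82.2, 93.9, 121 and 59.0 CPM and S1pr3 (a sphingosine-1-phosphate receptor) at 209, 242, 239 and 205 CPM, against 0.0651 ± 0.0572 and 0.144 ± 0.0184 CPM in endothelial cells. In the Notch pathway, the target Heyl was at 133 ± 20.2 CPM against 2.27 ± 0.894 CPM in endothelial cells. Of matrix genes, Mgp (matrix Gla protein) was at 2574 ± 482 CPM, Col6a1 at 163 ± 34.2 CPM and Postn (periostin) at 136, 139, 324 and 159 CPM, with HFpEF library 1 the highest.

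Most pericyte-like cells also held endothelial transcripts. No UMI of Pecam1 or Cdh5, which encode the endothelial junction proteins PECAM-1 and VE-cadherin, was found in 143 cells, 1 was found in 62 cells and 2 or more in 340 cells (62.4%). The cells with 2 or more were 60 of 88 in NC library 1, 94 of 141 in NC library 2, 64 of 111 in HFpEF library 1 and 122 of 205 in HFpEF library 2. They were the deeper cells, with a median of 6537.5, 7162.5, 3353.5 and 3612 UMIs, against 2398, 2560, 1397 and 1063 in cells with none. In each library the deeper median lay near the sum of the median of cells with none and the median of endothelial cells, which was 6213, 6706, 3283 and 3032 UMIs. Whether such a barcode held 1 cell or a pericyte together with an endothelial cell was not tested.

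**Figure D2:**
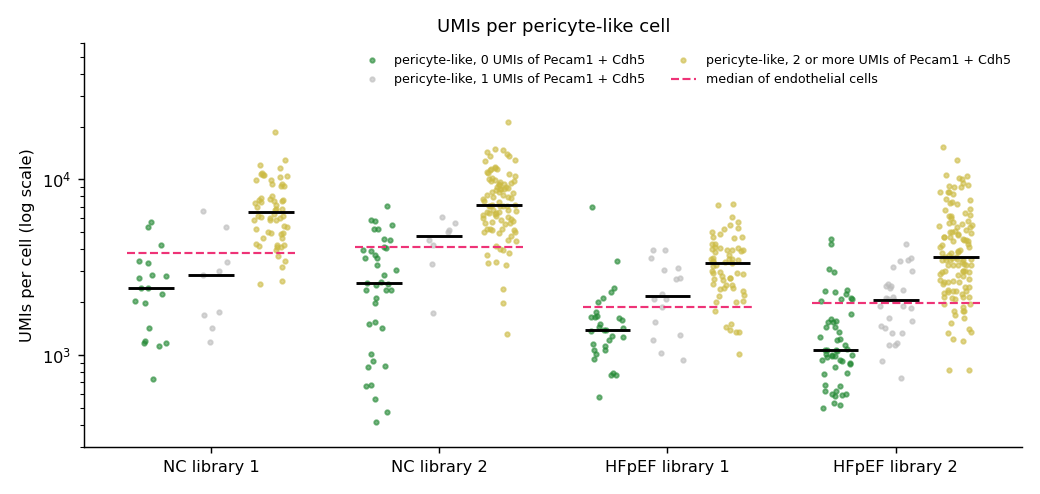
UMIs per pericyte-like cell on a log scale, by library and by the UMIs of Pecam1 and Cdh5 together, with 1 point per cell, a black line at the median and a dashed line at the median of endothelial cells. In every library the cells with none lie lower than those with 2 or more, whose median is at least 2.40 times as high.

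The other endothelial markers followed the same division. A list of 23 endothelial genes without Pecam1 and Cdh5 held 36340 CPM in NC library 1, 41520 CPM in NC library 2, 31687 CPM in HFpEF library 1 and 38700 CPM in HFpEF library 2 in the cells with 2 or more. In cells with none it held 7930, 7475, 8219 and 15038 CPM, in the same order. The former values were 60.6 to 71.1% of the endothelial level and the latter 11.7 to 27.6%, with HFpEF library 2 the highest in both. As a reference for RNA from outside the cell, 123 cells with at least 3 UMIs of Cd79a, Cd79b and Ms4a1, marker genes of B cells, held 34763, 30901, 23336 and 22863 CPM of the same list. These summed levels were above those of the pericyte-like cells with none in each library, at median depths of 8216, 5635, 2200 and 3035 UMIs. Per cell, the median share of the list among UMIs was 3.49, 2.82, 1.55 and 0.289% in these cells against 0.748, 0.753, 0.518 and 0.963% in the pericyte-like cells with none, so the order turned in HFpEF library 2. These cells were chosen by B cell transcripts alone, and whether they too shared barcodes with endothelial cells was not tested. The list of 30 other pericyte genes ran the other way: its level in cells with 2 or more was 41.6, 38.9, 50.8 and 43.2% of the level in cells with none.

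**Figure D3:**
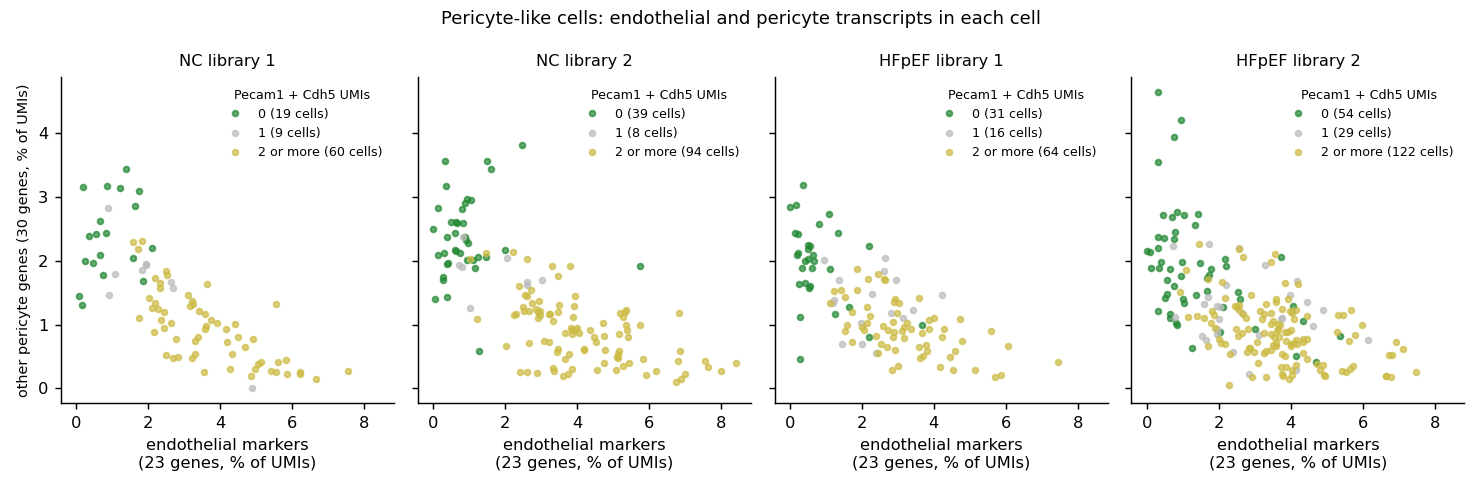
Each pericyte-like cell by the percent of its UMIs from 23 endothelial markers (x axis) and from 30 other pericyte genes (y axis), 1 panel per library, coloured by the UMIs of Pecam1 and Cdh5. Cells with none gather at low endothelial and high pericyte percentages, and the remaining cells spread towards the lower right.

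Gene by gene, 208 of 14029 genes with a UMI (1.48%) differed at least 2-fold in the same direction in 4 of 4 libraries between cells with 2 or more and cells with none, on the log2(CPM + 20) scale. Of these, 175 were higher in the cells with 2 or more and all 175 were also higher in endothelial cells than in cells with none, while 33 were lower and all 33 were lower in endothelial cells. Gpihbp1, which anchors lipoprotein lipase on capillary endothelium, averaged 1309 CPM in cells with 2 or more and 132 CPM in cells with none. Aqp1, a water channel, averaged 730 and 54.4 CPM. Gja1 (connexin 43) was at 0, 0, 19.7 and 0 CPM in cells with none and averaged 225 CPM in cells with 2 or more, against 265 ± 33.4 CPM in endothelial cells. In the other direction stood Prkg1, with 188 CPM in cells with none and 40.3 CPM in cells with 2 or more, Ednra with 212 and 72.6 CPM, and Tpm2 with 647 and 204 CPM. The division itself rests on 2 endothelial genes and on depth, so these values are a description. After thinning every cell to 1000 UMIs, which left out 41 shallower cells, 28.7, 28.6, 30.5 and 34.1% of pericyte-like cells had 2 or more UMIs of Pecam1 and Cdh5, against 58.6 to 66.7% of endothelial cells, which had been chosen for 2 or more such UMIs before thinning (57.7 to 68.2% of pericyte-like cells had them then), so no comparison is drawn. In the thinned cells, 45 genes (10 higher and 35 lower) passed the same fold.

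In the 143 cells with none, Kdr, Flt1 and Dll4, genes of the endothelial partner in capillary signalling, were lower than in endothelial cells. They are examples, and no count over the list of such genes was made. The Notch ligand Jag1 went the other way. It was at 82.8 and 196 CPM in NC libraries 1 and 2 and at 158 and 242 CPM in HFpEF libraries 1 and 2. Endothelial cells had 42.5, 50.7, 55.0 and 78.6 CPM. Kdr and Flt1, the VEGF receptors of endothelium, averaged 110 ± 113 and 130 ± 138 CPM (SD, n = 4 libraries), against 1322 ± 181 and 1459 ± 83.9 CPM in endothelial cells, and the Notch ligand Dll4 averaged 12.3 ± 19.2 against 158 ± 9.53 CPM. Notch3 averaged 946 ± 208 CPM and Cspg4 (the proteoglycan NG2) 394 ± 159 CPM. For Kdr and Flt1 the level was highest in HFpEF library 2, at 256 and 336 CPM, where cells with none were also the shallowest.

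The share of pericyte-like cells among filtered cells was 1.24% in NC library 1 (95% exact Clopper-Pearson interval 0.993 to 1.52%), 2.11% in NC library 2 (1.78 to 2.48%), 2.04% in HFpEF library 1 (1.68 to 2.45%) and 0.996% in HFpEF library 2 (0.865 to 1.14%). The diets overlapped, and the means of 2 libraries were 1.67 ± 0.616% (SD) for NC and 1.52 ± 0.739% (SD) for HFpEF. The difference of -0.155 percentage points was smaller than the spread within either diet, and its direction depended on which libraries were used: it was 0.281 without NC library 2 and 0.368 without HFpEF library 2. An exact permutation test of 2 against 2 libraries cannot give a p under 0.33. The intervals cover counting error only, and the cells had been sorted by the Cdh5-driven reporter, so the shares are not those of the tissue. The list of 23 endothelial genes took 3.28% of the UMIs of pericyte-like cells in NC library 1, 3.62% in NC library 2, 2.68% in HFpEF library 1 and 3.51% in HFpEF library 2, so that the diets overlapped there too.

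Scarb1, the floxed gene, was at 63.6 and 31.3 CPM in pericyte-like cells of NC libraries 1 and 2 and at 66.1 and 41.2 CPM in HFpEF libraries 1 and 2. In endothelial cells it was at 109, 45.3, 109 and 51.0 CPM. In both classes library 1 of each diet was higher than library 2 and the diets overlapped. Pericyte-like cells with no UMI of Pecam1 or Cdh5 held 0, 0, 2 and 0 UMIs of Scarb1. Since the labels do not give the genotype of a library, these values check no label.

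The comparison of HFpEF with NC in pericyte-like cells was made on counts summed per library, with edgeR's quasi-likelihood test over 7170 genes. Here and below, CPM in diet comparisons were scaled by TMM factors unless stated, as were those of Scarb1 above. Values of the marker lists of other cell types, sums and single genes, were not scaled. At an adjusted p under 0.05, 7 genes were higher in HFpEF (0.0976% of the genes tested) and 0 were lower. At an unadjusted p under 0.05 the test counted 358 genes higher (4.99%) and 253 lower (3.53%). The 7 genes were 4 heat shock chaperones (Hsph1, Hspa1a, Hspa1b and Hspd1), the chemokines Ccl2 and Cxcl10, and Gm12840, for which no function is given here. DESeq2 also called 7 genes, of which only Hspa1a was shared; the others were Actb, Apold1, B2m, Dnajb1, Hspe1 and Iigp1. It gave no adjusted p for Hsph1, Ccl2, Cxcl10, Gm12840 and Hspd1, whose log2 fold changes were 2.15, 2.10, 2.42, 1.74 and 1.13 with DESeq2, against 2.16, 2.08, 2.27, 1.81 and 1.14 with edgeR. Hspa1b had an adjusted p of 0.098 with DESeq2.

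Hsph1, a cochaperone of the HSP110 family, had 67.7 CPM in NC library 1, 55.7 CPM in NC library 2, 261 CPM in HFpEF library 1 and 279 CPM in HFpEF library 2. Both HFpEF libraries stood far above both NC libraries, and the log2 fold change was 2.16 ± 0.21 (SE, adjusted p = 8.9e-05). Hspa1b, an inducible HSP70, had 2395, 1329.9, 4175 and 6813 CPM in the same order, a log2 fold change of 1.57 ± 0.25 (adjusted p = 0.015). Hspa1a, its near-identical neighbour, had 3371, 2206, 5579.9 and 7100.2 CPM, a log2 fold change of 1.19 ± 0.20 (adjusted p = 0.023). Reads may be split between these 2 genes, so their separate values are uncertain, but both were higher in both HFpEF libraries. Hspd1, the mitochondrial HSP60, had 117, 138, 226 and 328 CPM (log2 fold change 1.14 ± 0.21, adjusted p = 0.049). With hemoglobin-rich cells kept, Hspd1 was not called and the other 6 genes were, and all 7 kept their direction. Its partner Hspe1 (HSP10) had 215, 193, 344 and 447 CPM (log2 fold change 0.99 ± 0.19, adjusted p = 0.057), just short of the threshold.

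Of the 22 heat shock chaperones that could be tested, 4 passed and 18 did not, where 0.0976% of all genes tested passed as higher. At the unadjusted threshold of 0.05, 16 of 22 were higher and 0 lower, against 4.99% and 3.53% of all genes tested. The median log2 fold change of the list was 0.68, against -0.00 over all genes tested. Among those that did not pass were the HSP40 Dnajb1 (419, 420, 834 and 621 CPM), Hsp90aa1 (2319, 1618, 3028 and 3208 CPM) and Hspb1 (1927, 1239, 2419.7 and 2584 CPM). In endothelial cells of the same libraries the median over 24 chaperones was 0.75. Of 24 tested there, 1 passed, where 6 of 12719 endothelial genes passed in either direction (0.0472%). It was the HSP40 Dnajb4 (27.6, 26.6, 49.0 and 50.3 CPM, log2 fold change 0.88 ± 0.09, adjusted p = 0.047). Hsph1 was at 66.3, 28.3, 157 and 216 CPM (log2 fold change 1.99 ± 0.36, adjusted p = 0.10). The difference in log2 fold change between pericyte-like and endothelial cells was -0.05 for Hsph1 (adjusted p = 1.00).

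In the 143 pericyte-like cells free of Pecam1 and Cdh5 UMIs, Hsph1 had 62.1, 161, 158 and 161 CPM without TMM scaling, from 3, 18, 8 and 12 UMIs, and the diets overlapped (log2 fold change 0.36, adjusted p = 0.92). Hspa1b had 2961, 2489, 3843 and 5837 CPM, also without TMM scaling, and passed the test there (log2 fold change 0.88, adjusted p = 0.019). Hspa1a (0.51, adjusted p = 0.36) and Hspd1 (0.55, adjusted p = 0.82) did not pass there. Of 1092 genes tested in these cells, 8 were higher (0.733%) and 1 lower (0.0916%). With every cell thinned to 1000 UMIs before selection, Hspa1a and Hspa1b were the only 2 genes called, among 1378 tested. The log2 fold change was then 2.20 for Hsph1 (adjusted p = 0.22) and 1.94 for Hspd1 (adjusted p = 0.054).

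**Figure D4:**
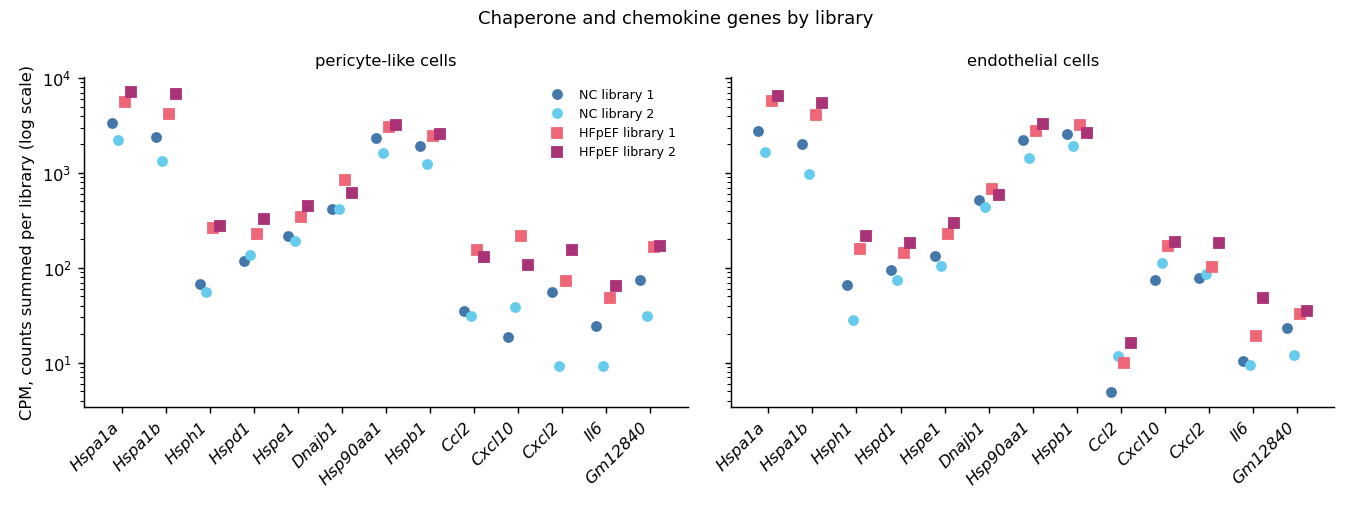
TMM-scaled CPM of chaperone and chemokine genes in pericyte-like cells (left) and endothelial cells (right) on a log scale, 1 point per library, circles for NC and squares for HFpEF. For all 13 genes both squares lie above both circles in pericyte-like cells.

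The promoters of Hspa1b and Hsph1 are shown because chaperone genes are induced through heat shock elements, repeats of GAA and its reverse complement. In the 250 bases before the start (RefSeq, GRCm38.p6), capitals mark matches to GAANNTTC or TTCNNGAA. For a gene with several listed starts, the first start with a match was shown. Hspa1b had 1 listed start and Hsph1 had 2, so the Hsph1 window was chosen for its match. Each of these motifs reads the same on both strands, and the matches of neighbouring motifs may overlap.
Hspa1b (chr17:34959239-34959488, minus strand): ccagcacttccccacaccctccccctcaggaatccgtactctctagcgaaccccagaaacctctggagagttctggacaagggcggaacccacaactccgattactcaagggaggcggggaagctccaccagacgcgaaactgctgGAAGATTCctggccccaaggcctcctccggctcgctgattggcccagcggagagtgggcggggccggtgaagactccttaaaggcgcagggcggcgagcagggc
Hsph1 (chr5:149636337-149636586, minus strand): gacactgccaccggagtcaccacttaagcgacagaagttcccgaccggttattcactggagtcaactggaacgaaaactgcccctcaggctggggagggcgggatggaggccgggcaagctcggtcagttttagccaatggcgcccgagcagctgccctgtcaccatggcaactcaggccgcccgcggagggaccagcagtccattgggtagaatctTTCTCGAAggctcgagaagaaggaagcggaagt
Of the 24 listed chaperones, 20 had a promoter in the table and 11 (55%) held a match, Hspa1a, Hspd1 and Hspe1 among them, against 14.5% of 27025 genes. A gene was counted when any of its listed starts held a match. A match describes the letters of the window and was not tested as a binding site.

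Ccl2, a chemokine that attracts monocytes, had 34.9 CPM in NC library 1, 31.3 CPM in NC library 2, 153 CPM in HFpEF library 1 and 131 CPM in HFpEF library 2. The diets did not overlap, and the log2 fold change was 2.08 ± 0.25 (adjusted p = 0.00095). The transcripts sat in few cells, with 17 UMIs in 4 cells, 27 in 8, 44 in 17 and 86 in 27. In cells with no Pecam1 or Cdh5 UMI there were 0, 1, 5 and 9 UMIs, and in endothelial cells Ccl2 was at 4.91, 11.9, 9.87 and 16.2 CPM without TMM scaling. After thinning to 1000 UMIs before selection the log2 fold change was -0.048 (adjusted p = 1.00).

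Cxcl10, an interferon-induced chemokine for CXCR3-bearing T cells, had 18.5, 38.3, 216 and 107 CPM in the same order, from 9, 33, 62 and 70 UMIs in 4, 8, 10 and 22 cells. Both HFpEF libraries were higher than both NC libraries (log2 fold change 2.27 ± 0.35, adjusted p = 0.015). Cells with no Pecam1 or Cdh5 UMI held 0, 1, 0 and 1 of these UMIs. In endothelial cells Cxcl10 was at 74.1, 113, 169 and 189 CPM. Whether the Cxcl10 of pericyte-like cells came from endothelial RNA in the same barcodes was not tested. Its promoter held 1 match each to the core of interferon-stimulated elements, a pair of GAAA repeats with any 2 bases between them, and to GGGNNTTCC, a core of NF-kB sites. Both were searched on both strands and are marked in capitals in this order.
Cxcl10 (chr5:92348890-92349139, minus strand): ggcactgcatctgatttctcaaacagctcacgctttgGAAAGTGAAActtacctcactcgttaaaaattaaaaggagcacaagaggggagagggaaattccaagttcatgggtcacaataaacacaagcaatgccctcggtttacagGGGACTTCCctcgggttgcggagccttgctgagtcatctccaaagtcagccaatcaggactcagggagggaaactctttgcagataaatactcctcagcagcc
Counted by gene over any listed start, the interferon motif was found in 3.46% of all genes with a promoter in the table and the NF-kB motif in 5.61%. They were found in 17 and 1 of the 30 interferon-induced genes with a promoter there. Of the 28 genes of chemokines, cytokines and NF-kB with a promoter there, Cxcl10 among them, 2 held the interferon motif and 7 the NF-kB motif.

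Other cytokine genes did not pass. Of 28 tested genes in the list of chemokines, cytokines and NF-kB, 2 passed (Ccl2 and Cxcl10), where 0.0976% of all genes tested passed as higher. At the unadjusted threshold 5 were higher and 1 lower, against 4.99% and 3.53% of all genes tested. The median log2 fold change was 0.22. Cxcl2, which attracts neutrophils, had 55.4, 9.28, 73.0 and 156 CPM (log2 fold change 2.20 ± 0.47, adjusted p = 0.097), and Il6 had 24.6, 9.28, 48.7 and 64.1 CPM (1.93 ± 0.42, adjusted p = 0.10). For both genes the HFpEF libraries were the higher, from at most 102 UMIs in a library.

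Of 37 tested interferon-induced genes, 0 passed. At the unadjusted threshold 12 were higher and 0 lower, against 4.99% and 3.53% of all genes tested. In the higher direction 19 did not overlap between the diets, against 19.4% of all genes tested. The median log2 fold change was 0.49. Iigp1, an immunity-related GTPase, had 616, 651, 1321 and 876 CPM, and Irgm1, of the same family, 98.5, 140, 268 and 191 CPM. Ifit1, an antiviral protein, had 16.4, 59.2, 122 and 86.9 CPM. HFpEF library 1 was the highest for all 3. Of 19 genes of MHC class I and II, 0 passed and the median was 0.22. At the unadjusted threshold 6 were higher and 0 lower, against 4.99% and 3.53% of all genes tested. Without overlap 10 were higher and 0 lower, against 19.4% and 19.3%. B2m had 1362, 1525, 2110.3 and 2415 CPM, and Cd74, the invariant chain of class II, had 0, 23.2, 181 and 50.3 CPM, with 36 of its 52 UMIs in HFpEF library 1 in 1 cell. In endothelial cells the medians were 0.42 and 0.45.

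Among genes by which pericytes are known, none passed. Of 27 tested other pericyte genes, 3 were lower and 0 higher at the unadjusted threshold, against 3.53% of all genes tested in the lower and 4.99% in the higher direction, with a median log2 fold change of -0.09. Higd1b had 445, 381, 282 and 282 CPM, and Gja4 (connexin 37) 369, 405, 275 and 297 CPM, with adjusted p-values of 0.37 and 0.50. The 16 contractile genes (median -0.03), 15 genes of nitric oxide and cGMP signalling (-0.08), 18 ion channels (-0.20), 44 genes of endothelial-pericyte signalling (-0.04), 21 basement membrane genes (-0.06), 22 vasoactive receptors and G protein regulators (0.09) and 24 fibrotic matrix genes (0.07) also held no passing gene. Among these, the cyclase subunit Gucy1a2 had 32.8, 31.3, 55.6 and 50.3 CPM, the Notch ligand Jag1 105, 110, 143 and 183 CPM, the laminin chain Lama2 75.9, 97.5, 59.1 and 44.2 CPM, and the thrombin receptor F2r 47.2, 38.3, 76.5 and 110 CPM. The diets did not overlap for these 4 genes, as for 19.4% of all genes in the higher and 19.3% in the lower direction. Thbs1, which encodes thrombospondin-1, had 6.16, 36.0, 202 and 35.1 CPM, with HFpEF library 1 alone high.

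No gene passed in the lower direction with diet as the only term. The 10 genes with the smallest unadjusted p, a mean of at least 20 CPM and no overlap were Mgst3, Igfbp3, Drap1, Fam181b, Maged2, Cavin3, Serpini1, Rcan2, Cenpb and Igfbp4, with log2 fold changes of -0.74 to -2.23 and adjusted p-values of 0.096 to 0.23. Mgst3, a microsomal glutathione transferase, had 191, 202, 122 and 79.3 CPM. Igfbp3, which binds insulin-like growth factors, had 234, 183, 73.0 and 117 CPM, and was at 62.1, 17.8, 0 and 0 CPM, without TMM scaling, in cells with no Pecam1 or Cdh5 UMI. Serpini1 (neuroserpin), 1 of the leading genes above, had 283, 313, 209 and 159 CPM. In the higher direction the rule added Abhd2, a lipid hydrolase, at 14.4, 6.96, 34.8 and 67.1 CPM (adjusted p = 0.051), and Plaur, the urokinase receptor, at 39.0, 18.6, 66.1 and 110 CPM (adjusted p = 0.057).

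Metabolic, stress and clock lists held no passing gene either. Of 77 tested genes of oxidative phosphorylation, 31 were lower without overlap and 2 higher, against 19.3% of all genes tested in the lower and 19.4% in the higher direction, with a median log2 fold change of -0.15 (-0.14 in endothelial cells). Of 36 fatty acid and PPAR genes, Angptl4, an inhibitor of lipoprotein lipase, had 67.7, 68.5, 132 and 125 CPM, and Lipe, the hormone-sensitive lipase, 115, 99.8, 48.7 and 61.0 CPM. Of 36 immediate early genes, 12 were higher and 1 lower at the unadjusted threshold (median 0.22), which 4.99% and 3.53% of all genes tested passed. Among the 36 was Nr4a3 at 36.9, 54.5, 80.0 and 104 CPM. The 29 genes of hypoxia and glycolysis had a median of 0.03, and the 25 genes of insulin, glucocorticoid and nutrient response one of -0.21. Of 15 clock genes (median 0.44), Hlf had 18.5, 33.7, 108 and 73.2 CPM and Arntl 28.7, 19.7, 6.95 and 9.15 CPM. The hour of collection was not given in the sources used here.

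Marker lists of other cell types were read beside these results. Of 18 cardiomyocyte markers, 7 could be tested and 6 were higher at the unadjusted threshold, where 4.99% of all genes tested were. Their median log2 fold change was 1.48. Summed, the 18 markers were at 136, 81.5, 281 and 218 CPM, their most abundant gene was Myl2 (20.1, 21.5, 62.1 and 35.4 CPM), and Myl7 and Nppa were at 0. In endothelial cells the median over 14 of these markers was 1.08. The 15 fibroblast markers summed to 411, 442, 523 and 345 CPM, with Smoc2 and Cfd at 0, and the 8 Schwann cell markers to 44.1, 63.4, 36.0 and 56.1 CPM, with Sox10 at 0. The 11 lymphatic and endocardial markers summed to 96.3, 101, 45.8 and 90.0 CPM, the 9 platelet and red cell markers to 10.0, 30.5, 0 and 29.5 CPM, and the 17 proliferation genes to 102, 119, 85.0 and 133 CPM. The part of these transcripts, and of depth, in the differences by diet was not tested.

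Leukocyte markers stood out in 1 library. The 17 markers summed to 32.1 CPM in NC library 1, 40.7 CPM in NC library 2, 723 CPM in HFpEF library 1 and 31.0 CPM in HFpEF library 2. Lyz2, a lysozyme of macrophages and neutrophils, was the most abundant, and Ms4a1, Cd3e, Cd3d, Cd3g and Nkg7 were at 0. In HFpEF library 1, 3 of 111 cells with at least 3 such UMIs held 95.5% of the 221 UMIs, and 1 cell held 148. Without the 6 pericyte-like cells of all libraries that had at least 3, all 7 genes passed again and 13 genes were called in all.

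Leaving out 1 library changed the number of genes called in pericyte-like cells, with a lone library then assumed to vary like the others: 45 genes without NC library 1, 42 without NC library 2, 82 without HFpEF library 1 and 64 without HFpEF library 2. All 7 genes were among them each time, except Gm12840 without NC library 2 (adjusted p = 0.061) and Hspd1 without HFpEF library 2 (adjusted p = 0.14). The log2 fold change of Hsph1 lay between 0.36 and 2.48 over the alternatives that tested it, and that of Cxcl10 between 1.79 and 3.02.

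To ask whether diet acted alike on pericyte-like and endothelial cells, the difference of the 2 log2 fold changes was tested in 1 edgeR model with each library as a block, over 11580 genes. It passed for 10 genes (0.0864%), all with the larger value in pericyte-like cells, and 565 genes had an unadjusted p under 0.05. Endothelial cells had been chosen to hold no UMI of the leukocyte gene Ptprc, and pericyte-like cells had no such limit. Cells with leukocyte transcripts could therefore enter the pericyte-like side more easily. DESeq2 called 0 genes, with 117 at an unadjusted p under 0.05. Its differences were 0.91 against 0.90 with edgeR for Spry1, 0.75 against 0.74 for Mt1, 1.43 against 1.29 for Cxcl10 and 1.40 against 1.37 for Cxcl2.

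Spry1, an inhibitor of receptor tyrosine kinase signalling, had 222 and 261 CPM in pericyte-like cells of NC libraries 1 and 2 and 306 and 284 CPM in those of HFpEF libraries 1 and 2, while endothelial cells had 235, 203, 153 and 127 CPM. The HFpEF libraries were higher in the former and lower in the latter, and the fold changes differed by 0.90 ± 0.16 on the log2 scale (adjusted p = 0.000365); neither fold change passed alone. The metallothioneins, which bind zinc and copper, were much more abundant in pericyte-like cells. Mt1 had 581, 419, 799.6 and 474 CPM against 55.4, 42.8, 44.4 and 28.7 CPM in endothelial cells, a difference of 0.74 ± 0.12 (adjusted p = 1.0e-05). Mt2 had 94.4, 61.5, 143 and 108 CPM against 19.3, 11.9, 13.8 and 8.38 CPM, a difference of 1.21 ± 0.28 (adjusted p = 0.037). In pericyte-like cells the diets overlapped for Mt1 and not for Mt2. Adjusted p-values over the alternatives ran from 5.0e-06 to 1 for Spry1, from 6.8e-05 to 1 for Mt1 and from 0.021 to 1 for Mt2. In cells with no Pecam1 or Cdh5 UMI the differences were 0.79, 0.86 and 1.17 for Spry1, Mt1 and Mt2, and when thinned 0.79, 0.73 and 2.12, all with an adjusted p of 1.

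Cxcl10 and Cxcl2 also differed, with fold changes larger in pericyte-like cells by 1.29 ± 0.26 (adjusted p = 0.0038) and 1.37 ± 0.29 (adjusted p = 0.0083), and over the alternatives their adjusted p-values ran from 1.2e-07 to 1 and from 3.2e-07 to 1. For Cxcl10 the difference was -0.54 in cells with no Pecam1 or Cdh5 UMI and 0.21 when cells were thinned, with an adjusted p of 1 in both. The other 5 genes were no longer called once cells with at least 3 leukocyte UMIs were left out, whereas Spry1, Mt1, Mt2, Cxcl10 and Cxcl2 were. Lyz2 had 152 UMIs in 2 cells of HFpEF library 1, 123 of them in 1 cell, against 0, 3 and 0 UMIs in the other libraries, and S100a4 had 45 UMIs in 2 cells of HFpEF library 1 against 0, 6 and 18. Igkc, an immunoglobulin chain, and Tgfbi had 4 and 12 UMIs there, each in 1 cell, and Igkc also 6 UMIs in 1 cell of HFpEF library 2. Ifi27l2a, an interferon-induced gene, had 36.9, 52.2, 188 and 88.5 CPM against 29.4, 27.4, 21.7 and 27.2 CPM in endothelial cells, a difference of 1.54 ± 0.28 (adjusted p = 0.000495, and 0.072 without those cells).

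**Figure D5:**
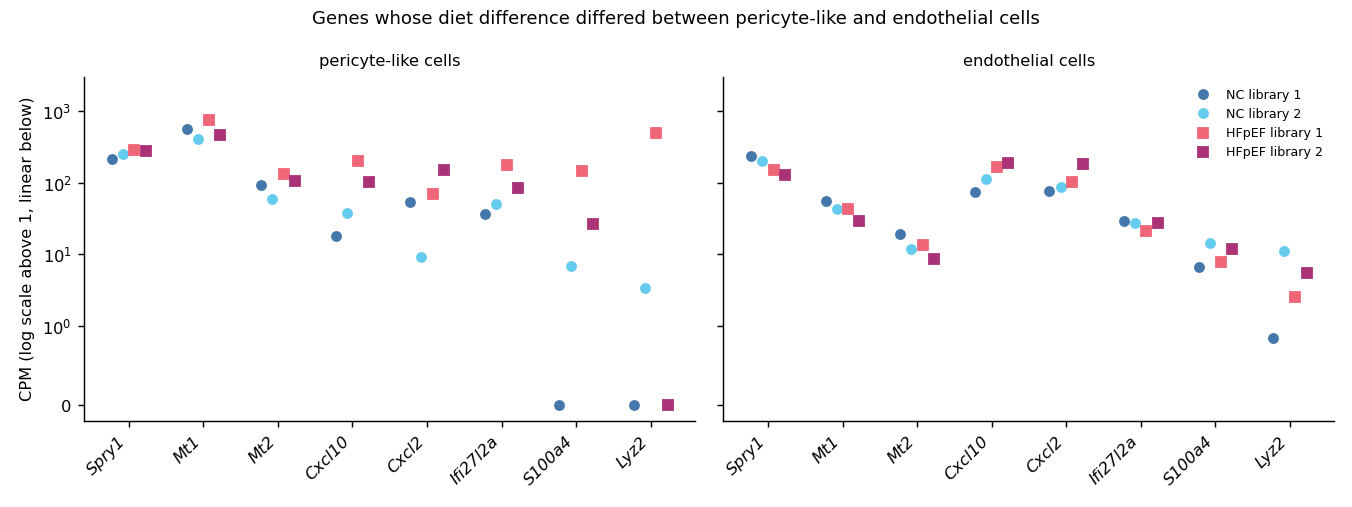
CPM without TMM scaling of 8 of the 10 genes whose diet difference differed between classes, in pericyte-like cells (left) and endothelial cells (right), 1 point per library, on an axis that is logarithmic above 1 CPM and linear below. Spry1 is higher in both HFpEF libraries on the left and lower on the right, and Lyz2 is high only in HFpEF library 1 on the left.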

How the data were processed

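Sorted left ventricular cells of 4 libraries were sequenced with 10x Genomics 3′ chemistry. The deposited values are UMI counts per gene and cell, which the authors made with fastp and Cell Ranger 5.0.1 on mm10, with reads downsampled between samples, and without division by library size. The members and gene lists were chosen with earlier results of these data known. Cells with over 200 genes, under 20% mitochondrial and under 1% hemoglobin UMIs were kept; no doublet caller was run. Counts were summed per library and cell class. Diet was tested with edgeR 4.0.16 (R 4.3.3; quasi-likelihood, TMM, filterByExpr, Benjamini-Hochberg over all genes) with diet as the only term, and the difference between classes with library as a block. SEs are the fold change divided by the root of the F statistic. The genes used to select cells were left out of all counts. The fits were tested on simulated data. DESeq2 1.42.0 was an alternative. CPM and log2 values were computed here from the counts. Genes named were those of the lists and, per direction, those called with at least 10 CPM and no overlap or, under 10 calls, the 10 of smallest unadjusted p with at least 20 CPM; further genes are given as examples of a list. Promoters (RefSeq, GRCm38.p6) and gene positions (GENCODE for GRCm38) are of the build of the counts. Figures used matplotlib 3.10.9.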

Additional observations from a re-analysis of the deposited data

Results flagged for a closer look

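The difference in log2 fold change between pericyte-like and endothelial cells passed the test of the difference itself for 8 genes with at least 10 CPM in pericyte-like cells. It was 0.90 for Spry1, 0.74 for Mt1, 1.21 for Mt2, 1.29 for Cxcl10, 1.37 for Cxcl2, 1.54 for Ifi27l2a, 4.17 for S100a4 and 6.32 for Lyz2. For S100a4 and Lyz2 these fitted values rest on NC libraries with at most 6 UMIs and are no bounds. Of the pericyte-like cells of HFpEF library 1, 2 held all UMIs of each of these genes. For Mt1, Mt2 and Spry1 the UMIs lay in 20 to 105 cells of each library.

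Among the 4-library values of the division by Pecam1 and Cdh5, no library stood apart by Dixon's test, which chance flags about 1 time in 20.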

How the results depend on the processing

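Against 7 genes called by diet in pericyte-like cells, no filter on low counts gave 85, thinning to 1000 UMIs 2, leaving out cells with leukocyte transcripts (an alternative chosen after seeing the data) 13, and leaving out 1 library 42 to 82. The library numbers showed no pairing of the samples (correlation of the deviations of same-numbered libraries -0.0076 over 3946 genes). A fit with the replicate block called 21, with 19 higher and 2 lower (Mgst3 and Igfbp3), and all 7 were among them. It also called Hspe1, Cxcl2 and Il6. Without the filter on low counts, 70 were higher and 15 lower. For the difference between classes, with 10 genes called, DESeq2 called 0, thinning 0, no filter 16 and leaving out 1 library 5 to 30. Against 208 genes past the fold between cells with 0 and with 2 or more UMIs of Pecam1 and Cdh5, thinning gave 45, adding 5 CPM gave 441, and leaving out 1 library 257 to 331. The difference in cell share ran from -0.677 to 0.368 and that in endothelial UMI share from -0.769 to 0.0621 percentage points without 1 library, the latter being 0.0195 when thinned. Direction reversed for Ccl2 (-0.048) and Cavin3 (0.12) when thinned, for Postn in cells with no Pecam1 or Cdh5 UMI (-0.15), and without 1 library for Scarb1 (-0.33 to 0.67) and Mt1 (-0.060 to 0.69). The causes were not tested. Over all named genes and alternatives, 618 fold changes kept direction and side of the threshold, 111 passed newly, 9 no longer passed and 6 reversed. DESeq2 gave no adjusted p for 47 named genes, 5 of the 7 called ones among them, and all 47 kept their direction.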

Other observations

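In the 143 pericyte-like cells with no UMI of Pecam1 or Cdh5, 1092 genes were tested by diet with edgeR, 8 were higher in HFpEF (0.733%) and 1 lower (0.0916%) at an adjusted p under 0.05, and 97 had an unadjusted p under 0.05. Besides Hspa1b and Dnajb1, the higher genes were Cd36, Ly6c1, Ly6e, Rbp7, Rgcc and Srgn, and the lower gene was Mgp. Cd36, a fatty acid transporter of capillary endothelium, had, without TMM scaling, 435, 740 and 788 CPM in NC library 1, NC library 2 and HFpEF library 1 and 1816 CPM in HFpEF library 2, against 4601 to 5557 CPM in endothelial cells. Ly6c1, a surface protein of cardiac endothelium, had 186, 62.4, 355 and 753 CPM, also without TMM scaling. Both genes were highest in HFpEF library 2, the library whose cells also held the most transcripts of the endothelial list. Cd36, Ly6c1 and Rgcc are members of that list and part of its sum, so this is no separate observation. Without TMM scaling, Mgp had 5921, 7922, 3193 and 3443 CPM in these cells. Over all pericyte-like cells it had 2433, 3087, 2803 and 1974 CPM, and did not pass. The list of 17 leukocyte markers held 20.7, 44.6, 2917 and 0 CPM in these cells, from 1, 5, 148 and 0 UMIs, with Lyz2 the most abundant and 11 of the 17 at 0. Srgn, a proteoglycan gene also expressed by leukocytes, had 61.4, 53.1, 539 and 247 CPM after TMM scaling and was highest in the same library, HFpEF library 1. The part of endothelial and of leukocyte RNA in these differences was not tested.

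Among other receptors of pericyte-like cells, P2ry14, a receptor for UDP-sugars, was at 104, 119, 118 and 57.5 CPM, with endothelial cells below 0.1 CPM. Rgs4, which like Rgs5 shortens G protein signals, was at 343, 313, 392 and 301 CPM. The gap junction gene Gjc1 (connexin 45) was at 207, 182, 157 and 171 CPM.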
